A study of Mus musculus with 16 samples.

Results

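Tight junctions are the seals near the top of epithelial cells, and 9 genes that build them were followed through the facial tissue of mouse embryos without and with Esrp1. The genes were chosen by name, as listed rows of the deposited expression table, and all 9 were found in it, among 30286 gene symbols in all. They were the claudins Cldn1, Cldn3, Cldn4, Cldn6, Cldn7 and Cldn9, the membrane protein gene Ocln, and the scaffold genes Tjp1 and Tjp3.

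The study compared 4 groups of C57BL/6 embryos at embryonic day 12. They were facial ectoderm of Esrp1 KO (Esrp1-/-) embryos, facial ectoderm of wild-type (WT) embryos, facial mesenchyme of Esrp1 KO embryos and facial mesenchyme of WT embryos. Per the labels, the layers of the facial prominences were separated surgically, and each group had 4 libraries, each from a pool of 6 to 7 embryos. The table holds 1 TPM value (a level corrected for transcript length and depth) per gene and group, so no value below has a replicate error, no test could be run, and the depth is unknown. Esrp1 encodes an epithelial splicing regulator, and the title names cleft lip, cleft palate and Wnt signaling in these KO mice.

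Claudins span the membrane and pair across neighbouring cells to form the tight junction strands. Which claudins a cell makes sets which ions and molecules pass between cells. Occludin, the product of Ocln, lies in the same strands, and the zonula occludens proteins ZO-1 (Tjp1) and ZO-3 (Tjp3) bind claudin tails from inside the cell and link them to actin. Claudin-1 is needed for the water barrier of mouse skin, claudin-3 and claudin-4 are receptors of a clostridial enterotoxin, claudin-6 is typical of embryonic epithelia, and claudin-9 is needed in the inner ear for hearing. Grainyhead-like factors are known activators of claudin genes in epithelia, and the repressors Snail and Zeb bind E-boxes in junction gene promoters.

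The promoters of 4 claudins are shown because 3 of them belong to genes close to restricted to the ectoderm and the last to a gene that is not. Promoter sequences from RefSeq (build GRCm38.p6, 250 bases before to 50 after a start site) matched 8 of the 9 symbols, all but Cldn9, with 11 start sites. Each is written 5′ to 3′ on the strand of the gene, and capitals mark the E-box letters CACCTG or their reverse complement CAGGTG.
Cldn3, chr5:134985964-134986263, plus strand: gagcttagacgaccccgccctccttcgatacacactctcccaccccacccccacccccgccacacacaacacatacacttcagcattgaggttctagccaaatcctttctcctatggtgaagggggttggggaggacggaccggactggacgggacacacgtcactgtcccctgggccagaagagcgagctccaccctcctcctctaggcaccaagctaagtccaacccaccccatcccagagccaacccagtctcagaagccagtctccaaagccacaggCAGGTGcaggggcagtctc
Cldn4, chr5:134946885-134947184, minus strand: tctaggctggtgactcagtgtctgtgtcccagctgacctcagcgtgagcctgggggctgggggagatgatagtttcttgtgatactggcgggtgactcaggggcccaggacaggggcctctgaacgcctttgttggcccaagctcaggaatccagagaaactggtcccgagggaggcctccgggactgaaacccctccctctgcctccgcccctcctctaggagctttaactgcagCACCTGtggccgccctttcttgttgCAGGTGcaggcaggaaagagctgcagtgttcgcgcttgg
Cldn6, chr17:23679115-23679414, plus strand: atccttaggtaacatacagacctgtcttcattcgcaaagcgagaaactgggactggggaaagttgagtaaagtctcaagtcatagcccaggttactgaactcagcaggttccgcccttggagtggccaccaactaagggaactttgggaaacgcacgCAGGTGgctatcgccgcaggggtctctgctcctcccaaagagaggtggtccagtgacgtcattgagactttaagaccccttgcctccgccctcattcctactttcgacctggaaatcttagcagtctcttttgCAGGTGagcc
Cldn1, chr16:26371790-26372089, minus strand: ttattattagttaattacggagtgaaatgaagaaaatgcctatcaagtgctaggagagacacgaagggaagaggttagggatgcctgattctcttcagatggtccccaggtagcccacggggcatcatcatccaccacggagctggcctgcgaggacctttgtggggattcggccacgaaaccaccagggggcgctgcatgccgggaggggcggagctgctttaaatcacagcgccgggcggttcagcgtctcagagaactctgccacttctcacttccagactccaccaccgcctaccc

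The E-box letters were found in 8 of the 11 windows, compared with 20.2% of all 32851 promoter windows. By gene they were found in 6 of the 8, where a match in any window of a gene counted. A share by gene over all promoters was not computed. The genes with a match were Cldn3, Cldn4, Cldn6, Cldn7 (in the second of its windows), Ocln and Tjp3. In Cldn4 the matches began 14 bases before the start site and at base 12 after it. In Cldn3 the match began at base 32 after the start, in Cldn6 at base 41 and 93 bases before the start. Both Ocln windows overlap and hold 1 match in common. The single windows of Cldn1 and Tjp1 held no such letters, and that of Tjp1 lies inside the annotated gene, away from its 5′ end. Of other motifs searched on both strands, the AP-2 letters GCCNNNGGC were in 3 windows (Cldn3, where they overlap the E-box, Ocln and Tjp1), against 16.6% of all windows. The grainyhead-like letters AACCGGTT were in 0 of the 11, against 0.146% of all windows. A match of letters is a description of the window and not a measured site.

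Ratios are given as log2 after 1 TPM was added to each value, a scale on which changes of genes near 0 look too small. Genes whose groups averaged under 1 TPM were left out of a comparison. The words "higher" and "lower" stand for a distance of 1.5-fold or beyond when KO is set against WT, and of 2-fold or beyond when layers are compared. They describe the deposited values and no test. Marker genes differed strongly between the layers. The 30 surface epithelium markers added up to 3875 TPM in KO ectoderm, 4463 in WT ectoderm, 156 in KO mesenchyme and 160 in WT mesenchyme. The 30 mesenchyme markers added up to 652, 246, 2739 and 4069 TPM in the same groups. Esrp1 was at 62.9 TPM in KO ectoderm and 170 in WT ectoderm. The deleted part of Esrp1 is not stated. In bulk tissue, fewer cells of a type and less RNA per cell cannot be told apart. Of all 13935 genes measured in ectoderm, 686 were higher and 63 lower in the KO, or 467 and 131 after quantile normalization. In mesenchyme 332 were higher and 1902 lower of 14233. That split was 577 and 1119 after scaling by the median of ratios, 639 and 968 after quantile normalization, and 637 and 371 after subtraction of a trend with transcript GC content. The median log2 ratio of all genes in mesenchyme was -0.12 as deposited and 0.00 after scaling by the median of ratios.

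Of the 9 genes, 3 claudins had the highest levels in ectoderm. Cldn6 was at 279 TPM in KO ectoderm and 234 in WT ectoderm, rank 433 and 515 among all symbols. Cldn4 was at 164 TPM in KO ectoderm and 149 in WT ectoderm. Cldn7, a claudin of many lining epithelia, was at 98.8 TPM in KO ectoderm and 96.5 in WT ectoderm. The other 3 member claudins were Cldn3 at 28.9 and 17.7 TPM, Cldn1 at 11.7 and 16.1 TPM, and Cldn9 at 8.79 and 3.26 TPM, each with KO ectoderm before WT ectoderm. Cldn6, Cldn4 and Cldn7 together held 81.8% of the summed TPM of all 33 claudin genes of the table in KO ectoderm and 82.7% in WT ectoderm. The sum itself was 663 TPM in KO ectoderm and 579 in WT ectoderm.

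**Figure D1:**
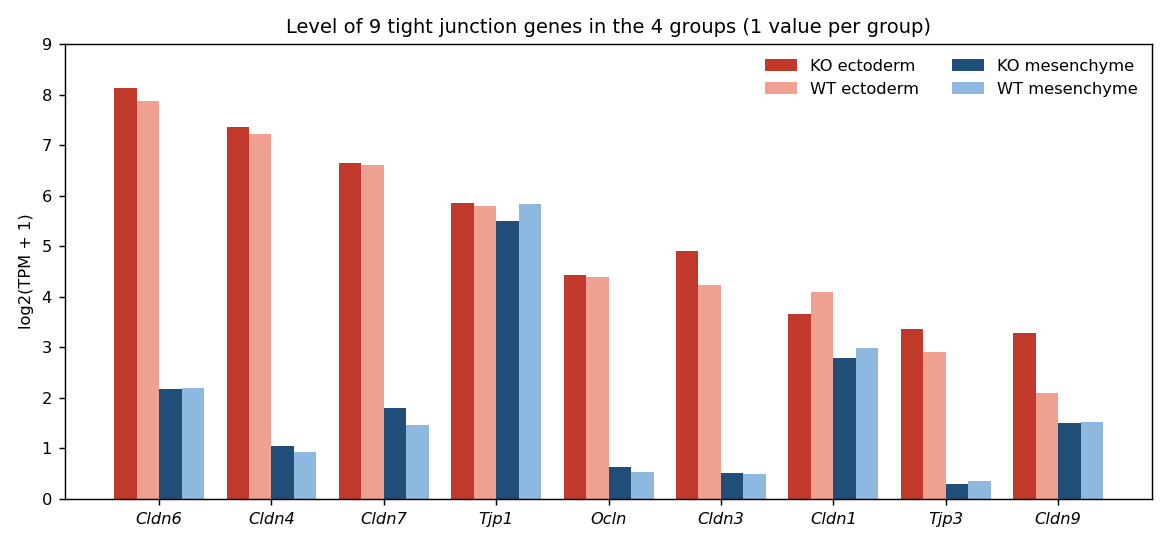
Level of each of the 9 genes as log2(TPM + 1) in KO ectoderm, WT ectoderm, KO mesenchyme and WT mesenchyme, with 1 value per group and no error bars. Cldn6, Cldn4 and Cldn7 are highest in both ectoderm groups, and Tjp1 is the gene with near equal bars in all 4 groups.

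In mesenchyme the same 6 claudins were low, and the make-up of the family was different. Cldn6 was at 3.53 TPM in KO mesenchyme and 3.59 in WT mesenchyme, Cldn7 at 2.48 and 1.76 TPM, and Cldn4 at 1.07 and 0.89 TPM. Cldn3 was at 0.42 TPM in KO mesenchyme and 0.40 in WT mesenchyme. Cldn1 at 5.95 and 6.97 TPM and Cldn9 at 1.83 and 1.86 TPM were nearer to their ectoderm levels. The 6 claudins together held 18.7% of claudin TPM in KO mesenchyme and 18.5% in WT mesenchyme, against 89.2% in KO ectoderm and 89.1% in WT ectoderm. The leading claudins of mesenchyme were Cldn12, at 21.6 TPM in KO and 22.95 in WT, and Cldn34c1, at 20.7 and 16.4 TPM. Cldn34c1 belongs to a group of related genes on the X chromosome, and its value is uncertain because reads could be shared among them. Cldn11, a claudin of myelin and the testis, was at 10.2 TPM in KO mesenchyme and 11.2 in WT mesenchyme. Cldn5, the claudin of blood vessels, was at 7.79 TPM in KO mesenchyme and 12.1 in WT mesenchyme.

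**Figure D2:**
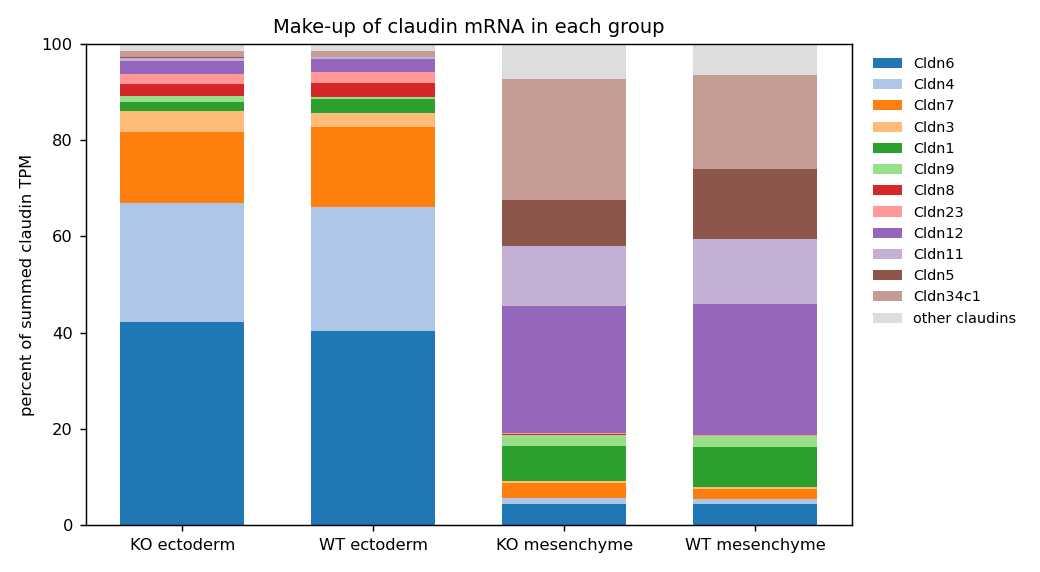
Make-up of claudin mRNA as the percent of summed claudin TPM taken by each gene, in KO ectoderm, WT ectoderm, KO mesenchyme and WT mesenchyme. Cldn6, Cldn4 and Cldn7 fill 81.8% of the KO ectoderm bar and 82.7% of the WT ectoderm bar, and Cldn12, Cldn34c1, Cldn11 and Cldn5 fill most of both mesenchyme bars.

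Occludin and the scaffolds fell into different patterns. Ocln was at 20.5 TPM in KO ectoderm, 19.9 in WT ectoderm, 0.54 in KO mesenchyme and 0.45 in WT mesenchyme. Tjp3 was at 9.30 TPM in KO ectoderm, 6.50 in WT ectoderm, 0.22 in KO mesenchyme and 0.27 in WT mesenchyme. Tjp1 was the only member of the 9 with a like level in both layers, at 56.9, 54.7, 44.4 and 55.8 TPM in the same order. Ocln and Tjp3 thus had the epithelial pattern of the leading claudins, and Tjp1 did not. ZO-1 is also found at adherens junctions and in cells that have no tight junctions. Values per gene do not separate the splice forms of Tjp1.

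Between the layers, 7 of the 9 genes were at least 2-fold higher in ectoderm in WT embryos and none was lower, beside 6.88% of all 14242 genes higher in WT ectoderm and 12.1% lower. In KO embryos it was also 7 of 9 and none, beside 9.06% of all 14411 genes higher in KO ectoderm and 6.88% lower. Most of the genes are known epithelial genes and were listed with their layer pattern in view, so these counts describe the list. The median log2 ratio of the 9 was 3.80 between the KO layers and 3.74 between the WT layers, against 0.00 and -0.15 over all genes. These medians depend on the amount added to low values, at 5.01 and 5.16 with 0.1 TPM added and 2.20 and 2.07 with 5 TPM added, KO layers before WT layers. The genes within 2-fold were Cldn1 (log2 ratio 0.87) and Tjp1 (0.35) between the KO layers, and Cldn9 (0.57) and Tjp1 (-0.03) between the WT layers. The ratio of Tjp1 between the WT layers was above 0, up to 0.12, after rescaling to a common sum, the median of ratios or quantile normalization. Cldn1 fell within 2-fold between the WT layers, at 0.82, with 5 TPM in place of 1 TPM added. The order of the ratios was led by Cldn4 and Cldn6, at 6.32 and 5.95 between the KO layers and 6.31 and 5.68 between the WT layers.

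The level in mesenchyme was then set beside that of markers of surface epithelium. The median marker was at 1.23% of its ectoderm level in KO mesenchyme and 1.22% in WT mesenchyme (30 genes, quartiles 0.770% to 3.45% in KO and 0.664% to 3.76% in WT). Cldn4 was just below these quartiles, at 0.652% in KO and 0.599% in WT. Within them were Cldn6 at 1.26% and 1.54%, and Cldn3 at 1.45% and 2.26%. Cldn7 (2.51% and 1.82%) and Ocln (2.63% and 2.26%) were also within them, and Tjp3 was within them in KO (2.37%) and above them in WT (4.15%). Well above them were Cldn9, at 20.8% in KO and 57.1% in WT, Cldn1 at 50.9% and 43.4%, and Tjp1 at 78.0% and 102%. No TPM was added for these percents, and small percents rest on mesenchyme values near 0. Cldn3, Ocln and Tjp3 were below 1 TPM in both mesenchyme groups, with Tjp3 at 0.22 TPM in KO and 0.27 in WT. The 6 genes with an E-box match in a promoter window were the 6 with a percent of 4.15 or less in WT, and Cldn1 and Tjp1, without a match, had the higher ones. With 8 genes this is a description only. The windows were also uneven, with 2 for each of Cldn7, Ocln and Tjp3 and 1 for each of Cldn1 and Tjp1. The Tjp1 window lies inside the annotated gene, away from its 5′ end, and Cldn9 had no window. Whether the mesenchyme values of the 6 genes with a match come from ectoderm left on the mesenchyme was not tested.

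**Figure D3:**
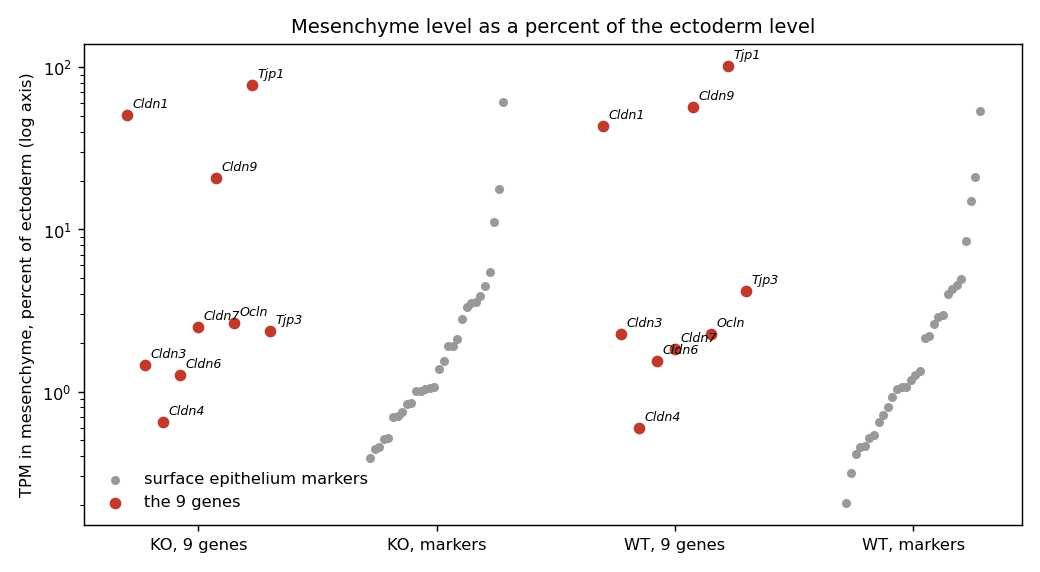
TPM in mesenchyme as a percent of TPM in ectoderm on a log axis, for the 9 genes (named points) and 30 surface epithelium markers (grey, sorted), in KO and in WT embryos. Cldn1, Cldn9 and Tjp1 stand above most markers, and the other 6 genes lie among them.

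In KO ectoderm 2 of the 9 genes were higher and none was lower, beside 4.92% of all genes higher and 0.452% lower. Cldn9 had the largest ratio, with 8.79 TPM in KO ectoderm against 3.26 in WT ectoderm, a 2.70-fold ratio of TPM and a log2 ratio of 1.20. Cldn3 followed with 28.9 TPM in KO ectoderm against 17.7 in WT ectoderm, a log2 ratio of 0.68. This value was 0.43, within 1.5-fold, after subtraction of a trend with transcript GC content (Cldn3 transcript, 62.7% GC), and 0.58 with 5 TPM in place of 1 TPM added. Cldn9 stayed past 1.5-fold under every alternative tried, with ratios down to 0.74.

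The other members were within 1.5-fold in ectoderm. Tjp3 had a log2 ratio of 0.46, and of 0.60, past 1.5-fold, once the mesenchyme share described below was taken off. That step by its arithmetic raises the ratios of all genes low in mesenchyme. Cldn6 had a log2 ratio of 0.26 and Cldn4 of 0.14. Tjp1 (0.06), Ocln (0.04) and Cldn7 (0.03) were close to level, and each was at or below 0 after the columns were rescaled to a common sum. Cldn1 was the only one of the 9 with a ratio below 0, at -0.43, with 11.7 TPM in KO ectoderm against 16.1 in WT ectoderm. Its ratio lay between -0.52 and -0.33 under all settings. The median of the 9 was 0.14, against 0.05 over all genes.

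The surface epithelium markers were nearly all within 1.5-fold. Of the 30 none was higher and 1, Krt15, a basal keratin, was lower, with a median of -0.10. Krt5, a basal keratin, was at 522 TPM in KO ectoderm and 702 in WT ectoderm, the adhesion gene Cdh1 at 160 and 190 TPM, and Epcam, which binds claudin-7, at 253 and 212 TPM. The summed TPM of the 9 genes equalled 17.5% of the summed marker TPM in KO ectoderm and 13.4% in WT ectoderm. Both sums differ, at 679 and 597 TPM for the 9 genes and 3875 and 4463 TPM for the markers. Krt15 alone was at 97.9 TPM in KO ectoderm and 321 in WT ectoderm. Relative to the median marker other than Krt15, the log2 ratio was 1.30 for Cldn9 and 0.77 for Cldn3, and no further member passed 1.5-fold.

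Cldn9 and Cldn6 are neighbours on chromosome 17 (GRCm38, GENCODE M21), so their values were set side by side. Cldn6 spans 23679249 to 23682446 on the plus strand and Cldn9 spans 23682584 to 23684026 on the minus strand, so the genes end 137 bases apart. Cldn9 equalled 3.15% of Cldn6 in KO ectoderm and 1.39% in WT ectoderm, but 51.8% in both KO and WT mesenchyme. Of the 1413 stretches of 31 bases in the Cldn9 transcript, 7 are also in Cldn6. On the other side of Cldn6 lies Tnfrsf12a, a receptor of the TNF family, at 20.2 TPM in KO ectoderm and 13.8 in WT ectoderm (log2 ratio 0.52). Cldn3 and Cldn4 lie 39.3 kb apart on chromosome 5, and Cldn3 equalled 17.6% of Cldn4 in KO ectoderm and 11.9% in WT ectoderm. The 3′ end of Cldn3 overlaps the antisense gene Wbscr25 by 40 bases, and Tjp3 on chromosome 10 (81273207 to 81291581, minus strand) overlaps Apba3 by 40 bases. The strand setting of the counting is not given in the sources used here.

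**Figure D4:**
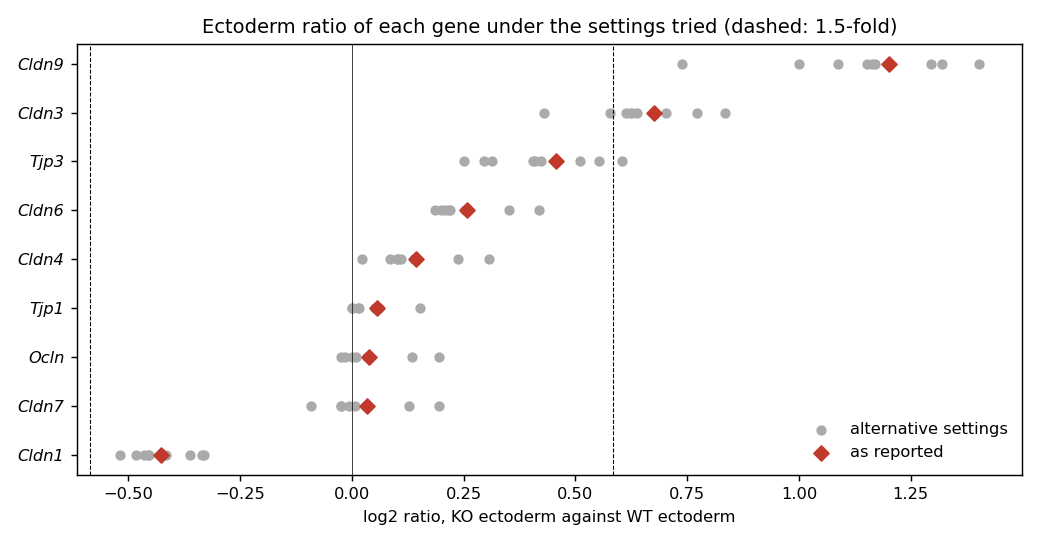
Log2 ratio of KO ectoderm against WT ectoderm for each of the 9 genes, as reported (red diamonds) and under the alternative settings (grey points), with dashed lines at 1.5-fold. Cldn9 lies past the line under all settings, Cldn3 falls within it under 2 of them, and Cldn1 lies below 0 in every case.

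Markers of ectoderm parts and of other tissues moved in the same comparison, in which 4.92% of all genes were higher and 0.452% lower. Of 14 nasal and olfactory ectoderm markers 11 were higher in KO ectoderm and none lower (median 1.02), and the list added up to 333 TPM in KO ectoderm and 171 in WT ectoderm, with none at 0 in either. Of 8 measured periderm markers 3 were higher (Krt6a, Krt17 and Sprr1a), and that list added up to 643 TPM in KO ectoderm and 644 in WT ectoderm. The part of nasal ectoderm or periderm in the values of Cldn3 and Cldn9 was not tested. Of 30 mesenchyme markers 26 were higher in KO ectoderm (median 1.49), of 12 measured endothelial markers 12, of 9 measured muscle markers 8, of 7 measured macrophage markers 4 and of 9 measured neuron markers 5. Red blood cell markers went another way, with 1 of 8 measured higher (median 0.03). That list added up to 4737 TPM in KO ectoderm, 4483 in WT ectoderm, 19497 in KO mesenchyme and 19110 in WT mesenchyme. Of 9 measured Schwann cell and melanoblast markers 2 were higher. In KO mesenchyme 6 of 10 neuron markers were higher as well (median 0.71), beside 2.33% of all genes. No mesenchyme, endothelial, muscle or macrophage marker was higher there. Lower there were 15 of 30, 6 of 15, 4 of 11 and 0 of 9 measured in that order, beside 13.4% of all genes. The gain of the mesenchyme markers amounted to a median 10.8% of the difference between WT mesenchyme and WT ectoderm (over 26 markers with a level in WT mesenchyme 5 times that in WT ectoderm or more). With that share of WT mesenchyme subtracted from KO ectoderm, Cldn9 had a log2 ratio of 1.32, Cldn3 of 0.83, Tjp3 of 0.60 and Cldn1 of -0.36. What is left is scaled up to a full sample, so the ratios of genes low in mesenchyme rise by arithmetic. Those of genes with more TPM in WT mesenchyme than in KO ectoderm fall by the same arithmetic. The median of the surface epithelium markers moved from -0.10 to 0.05, and that of the 9 genes from 0.14 to 0.31. The share was set and subtracted with WT mesenchyme, although 15 of the 30 mesenchyme markers were lower in KO mesenchyme (median -0.58). How the values would move with KO mesenchyme in its place was not tested. The subtraction of WT mesenchyme left 8 of 27 measured mesenchyme markers lower and 5 higher. It left 5 of 8 measured red blood cell markers lower, so 1 share did not level all such markers. After it 10 of 14 nasal and olfactory ectoderm markers were higher (median 1.12) and 3 of 8 measured periderm markers. Of those measured, 0 of 4 endothelial, 2 of 7 muscle, 2 of 7 macrophage and 3 of 7 neuron markers were higher. Of all 13832 genes measured after the step, 363 were higher.

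In KO mesenchyme none of the 5 measured members was higher or lower, beside 2.33% of all genes higher and 13.4% lower. Cldn3, Cldn4, Ocln and Tjp3 were too low to be counted there. Tjp1 was at 44.4 TPM in KO mesenchyme and 55.8 in WT mesenchyme (log2 ratio -0.32, or -0.20 relative to the median of all genes). Cldn7 was at 2.48 and 1.76 TPM (0.33, or 0.46 relative to that median, and 0.79, past 1.5-fold, after subtraction of the GC trend). Cldn1 had a ratio of -0.20, Cldn6 of -0.02 and Cldn9 of -0.02. The signs of Cldn6 and Cldn9 were not stable under other scalings, among them the median of ratios (0.09 and 0.07).

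The difference of the KO effects, ectoderm minus mesenchyme, was at least 2-fold in 1 of the 9 genes. Of the 9, 5 were high enough to be measured in mesenchyme. Cldn3, Cldn4, Ocln and Tjp3 passed the filter on low values here through ectoderm alone, so their differences mostly restate their ectoderm ratios and are not read further. The 1 gene was Cldn9, measured in both layers, at 1.22, beside 7.34% of all 14329 genes with a difference of 2-fold or more upward and 0.593% downward. The median over all genes was 0.19, and Cldn9 was 1.02 above it. The difference fell short of 2-fold, at 0.65, after subtraction of the GC trend, at 0.99 after subtraction of the length trend, and at 0.75 with 5 TPM added. Tjp1 (0.38) and Cldn6 (0.28, or -0.15 after subtraction of the GC trend) had smaller differences, and those of Cldn7 (-0.30) and Cldn1 (-0.23) were below 0.

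**Figure D5:**
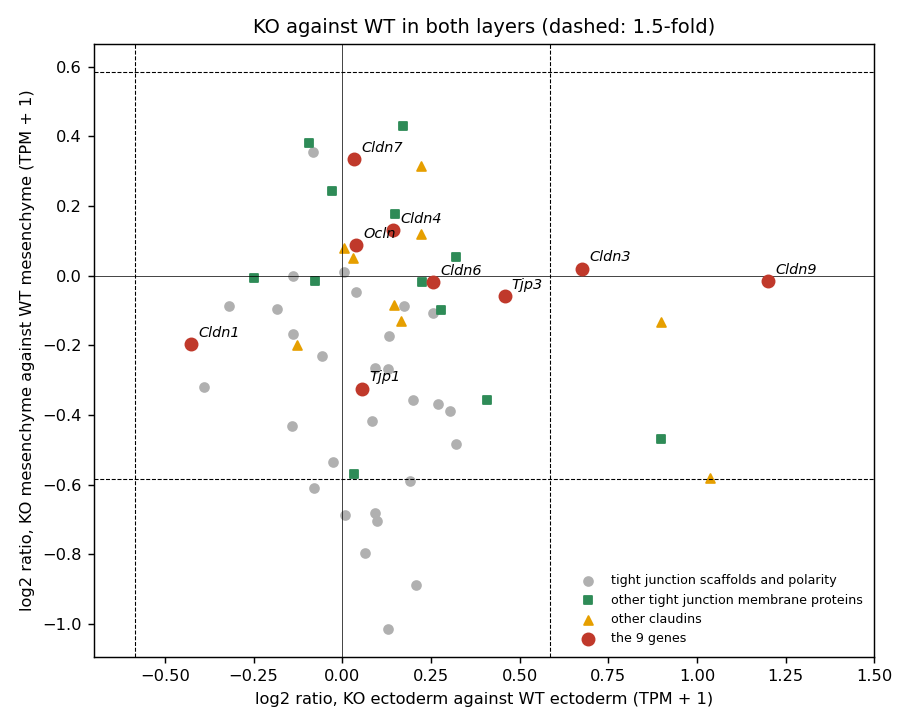
Log2 ratio of KO against WT (TPM + 1) in ectoderm on the x axis and in mesenchyme on the y axis, for the 9 genes (red, named) and the other claudins, tight junction membrane proteins and scaffolds with a mean of at least 1 TPM in ectoderm. Of the 9 genes Cldn9 and Cldn3 pass the dashed 1.5-fold line in ectoderm, and the scaffolds that pass a line do so in mesenchyme. Cldn3, Cldn4, Ocln and Tjp3 are drawn although too low in mesenchyme to be counted there, so their y values are not read.

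The rest of the claudin family was then described. Of the 33 deposited claudin genes, 17 reached 1 TPM in any group and 7 were listed at 0 in each group. The list of other claudins also held the claudin-domain genes Cldnd1, Cldnd2, Tmem114 and Tmem235, and 9 of its 31 genes in the table were measured in ectoderm. Beside 4.92% of all genes, 2 of those measured were higher in the KO. These were Cldn5, at 1.79 TPM in KO ectoderm and 0.36 in WT ectoderm, and Cldn11, at 3.51 and 1.42 TPM. Both have their highest level in mesenchyme. After subtraction of the mesenchyme share Cldn11 had a ratio of 0.56, within 1.5-fold, and Cldn5 was too low to be counted. The step lowers genes high in mesenchyme by its arithmetic, so both falls were fixed in advance. The other claudins measured in ectoderm were within 1.5-fold. Cldn8 was at 15.7 TPM in KO ectoderm and 15.7 in WT ectoderm, Cldn23 at 13.6 and 13.3 TPM, and Cldn10 at 5.02 and 4.16 TPM. Cldn12 was at 18.6 TPM in KO ectoderm and 16.7 in WT ectoderm, and Cldn34c1 at 9.09 and 7.65 TPM. Cldn15 was at 1.71 and 1.96 TPM, Cldn22 at 1.10 and 0.79 TPM. Cldn20, at 1.56 TPM in KO mesenchyme and 0.63 in WT mesenchyme, was the 1 claudin higher in KO mesenchyme. Of the list, 8 genes were measured there and none was lower, beside 2.33% of all genes higher and 13.4% lower. Cldn13 was at 2.09 TPM in KO mesenchyme and 2.34 in WT mesenchyme.

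Other membrane proteins of the junction were mostly within 1.5-fold in ectoderm. Beside 4.92% of all genes higher and 0.452% lower, 1 of 12 measured was higher in KO ectoderm and none lower, with a median of 0.16. This was Esam, an adhesion protein of endothelial cells, at 3.23 TPM in KO ectoderm and 1.27 in WT ectoderm. After the subtraction Esam was too low to be counted and none of the other 11 was higher. Esam was at 27.05 TPM in WT mesenchyme, so its fall was fixed in advance by the arithmetic of the step. F11r, which encodes JAM-A, was at 83.4 TPM in KO ectoderm and 99.3 in WT ectoderm. Lsr, a protein of tricellular contacts, was at 78.6 and 76.8 TPM, and Marveld2, which encodes tricellulin of the same contacts, at 21.2 and 22.5 TPM. Cxadr, an adhesion protein and virus receptor, was at 44.9 TPM in KO ectoderm and 47.9 in WT ectoderm. In mesenchyme none of 8 measured was higher or lower, beside 2.33% and 13.4% of all genes.

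Of 29 tight junction scaffolds and polarity genes none was 1.5-fold apart in ectoderm, with a median of 0.09. The highest were Amot, an angiomotin of apical junctions, at 117 TPM in KO ectoderm and 153 in WT ectoderm, Afdn at 113 and 125 TPM, and Ybx3, a partner of ZO-1, at 115 and 107 TPM. In KO mesenchyme 8 of the 29 were lower and none was higher, beside 13.4% of all genes lower and 2.33% higher. The median was -0.36, against -0.12 over all genes. Sympk, a protein of junctions and of mRNA 3′ end processing, was at 55.8 TPM in KO mesenchyme and 114 in WT mesenchyme (-1.01). Tjap1, Ybx3, Arhgef18, Pard3 (34.8 and 56.4 TPM), Pard6g and Amotl2 were also among the 8. The count was 3 lower (Tjap1 and Sympk among them) after quantile normalization or scaling by the median of ratios, 2 (Tjap1 and Sympk, with Mpp5 higher) after subtraction of a trend with transcript length, and 0 after subtraction of the GC trend. Over all genes of that comparison the same GC step gave 371 lower in place of 1902.

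Activators and repressors known to act on junction genes differed from each other in this comparison. Of 14 measured epithelial factors none was 1.5-fold apart in ectoderm, with a median of -0.10. Grhl3 was at 89.5 TPM in KO ectoderm and 98.1 in WT ectoderm, Grhl2 at 66.9 and 72.3 TPM, and Ovol1 at 20.6 and 18.2 TPM. Trp63, the regulator of stratified epithelium, was at 156 TPM in KO ectoderm and 193 in WT ectoderm. Of 6 repressors of epithelial junction genes, 4 were higher in KO ectoderm, beside 4.92% of all genes. Zeb1 was at 4.23 TPM in KO ectoderm and 1.54 in WT ectoderm, Zeb2 at 6.43 and 3.40, Twist1 at 24.1 and 7.71, and Twist2 at 8.43 and 2.63. The levels of these 4 in WT mesenchyme lay between 28.2 and 191 TPM, and after subtraction of the mesenchyme share none was higher and 2 were lower, Zeb2 (-1.45) and Twist1 (-0.83). Twist1 and Twist2 are also among the mesenchyme markers that set this share. The loss of their call was thus largely fixed in advance. Zeb1 and Zeb2 were also higher in WT mesenchyme than in KO ectoderm, so the step lowers their ratios by its arithmetic. Snai1 (11.8 and 8.26 TPM) and Snai2 (29.2 and 30.1 TPM) were within 1.5-fold. Twist1 was lower in KO mesenchyme, at 127 TPM against 191 in WT mesenchyme.

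Genes with a like pattern were sought among 11140 other genes that averaged 5 TPM or more, by the Euclidean distance between log2(TPM + 1) profiles over the 4 groups, each centred on its own mean. Nearest to the mean profile of the 9 was Crb3 (distance 0.03), which encodes an apical polarity protein, at 17.8 TPM in KO ectoderm, 15.1 in WT ectoderm, 0.70 in KO mesenchyme and 0.72 in WT mesenchyme. Ttll10, Myh14, Klc3 and Cgn, which encodes the tight junction protein cingulin (28.4 TPM in KO ectoderm and 27.6 in WT ectoderm), followed at distances up to 0.17. Crb3 and Cgn are themselves in the lists of tight junction genes. For 8 of the members the nearest genes were Lhx2, a LIM homeobox factor, for Cldn9 (0.16), Dkk4 for Cldn3, Dsp for Cldn4, Trim29 for Cldn6, Npr3 for Cldn1, Lypd2 for Ocln, Slc9a3r1 for Tjp3 and Ears2 for Tjp1. Lhx2 was at 11.4 TPM in KO ectoderm, 4.61 in WT ectoderm, 2.60 in KO mesenchyme and 2.24 in WT mesenchyme. Within the 9, the closest pairs were Cldn3 with Ocln and Cldn4 with Cldn6, at a distance of 0.51 and 0.52, and the farthest was Cldn4 with Tjp1 at 6.16. With 4 groups such a distance only says that values are alike.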

How the data were processed

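RNA was measured in 16 libraries, 4 in each of 4 groups, of which the labels list 1 index barcode for 11 and 2 barcodes for 5. Those with 2 barcodes were 2 in KO ectoderm, 2 in KO mesenchyme, 1 in WT ectoderm and 0 in WT mesenchyme. The number of barcodes thus partly goes with genotype. The authors deposited TPM values, 1 per gene symbol and group. The submitters' processing notes list STAR 2.5.2a, kallisto 0.43.0 and build mm10, with no word here on which produced the TPM or how libraries were merged. The planned limma model could not be fitted to 1 value per group, so sizes are reported without tests. TPM keep no depth.

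The table had 30391 rows, and of 103 symbols in several rows the one with the largest total entered. Positions, transcript length and GC content (medians over the transcripts of a gene) came from GENCODE M21 on GRCm38, which matched 99.3% of symbols, and promoters from RefSeq. Trends were fitted by lowess (fraction 0.3, statsmodels 0.14.6, Python 3.11.15) on genes averaging 5 TPM or more. Named genes were all 9 members, every other claudin at 1 TPM or more in any group, genes of the junction and factor lists past 1.5-fold or among the highest in ectoderm, the nearest profiles, and Krt5, Cdh1, Epcam and Esrp1; other genes were named after their values were seen. Members and lists were chosen with earlier results of these data known. The code was run on simulated columns built without noise from the deposited ones. Such a run checks the arithmetic only and not how far the real values can be trusted. Alternatives covered the pseudocount (0.1 and 5 TPM), filters, scaling, folds, GC and length trends, the mesenchyme share and an epithelial reference. A few list genes and their values are not reported here.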

Additional observations from a re-analysis of the deposited data

Results flagged for a closer look

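Cldn9 had opposite signs of its KO ratio in the layers, above 0 in ectoderm (8.79 TPM in KO and 3.26 in WT) and slightly below 0 in mesenchyme (1.83 TPM in KO and 1.86 in WT), with a difference of 1.22 on the log2 scale. The groups hold 1 value each, so the difference was not tested. The sign in mesenchyme turned under other scalings, as given in the report.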

How the results depend on the processing

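No paired analysis was possible because the table holds 1 value per group and its columns carry no replicate number, and no library could be left out for the same reason. Over 15 alternatives, 561 values of the log2 ratios of single members were computed: 542 stayed on the same side of the fold in use, 10 fell within it, 9 passed it, and 0 of those past it changed sign. The filters, the summing of rows that share a symbol and the set without Cldn9 leave these ratios unchanged by construction. Their values are all among the 542. Ratios within the fold did change sign under some settings, such as those of Cldn7 and Ocln in ectoderm. The count of members higher in KO ectoderm, 2 as reported, was 1 with 5 TPM added, with folds of 2 and 4, after subtraction of the GC trend and without Cldn9 (an alternative chosen after seeing the data). It was 3 with the lower folds and 3 after subtraction of the mesenchyme share (Tjp3 in both). With the lower folds, 1 member was lower in KO ectoderm (Cldn1), and 1 was higher and 1 lower in KO mesenchyme (Cldn7 and Tjp1). After subtraction of the GC trend 1 was higher in KO mesenchyme. The count of members with a difference of KO effects past the fold, 1 as reported, was 0 with 5 TPM added, with a filter at 5 TPM, with folds of 2 and 4, after subtraction of the GC or the length trend and without Cldn9, and 2 with the lower folds. Where the fold or the filter was changed, that change itself moves the count. The subtraction of the mesenchyme share by its arithmetic raises the ratios of genes low in mesenchyme, Tjp3 among them. For the other settings the cause was not tested. Over all genes, counts in ectoderm ran from 224 to 1706 higher (686 as reported) and 21 to 285 lower (63), and in mesenchyme from 89 to 1213 higher (332) and 261 to 4370 lower (1902). Between layers they ran from 401 to 1555 higher in WT ectoderm (980), 590 to 3047 in WT mesenchyme (1718), 460 to 2534 in KO ectoderm (1305) and 177 to 1931 in KO mesenchyme (992). Differences of KO effects ran from 80 to 3280 upward (1052) and 16 to 337 downward (85). Both ends of each of these ranges over all genes came from the changed folds. The ranges thus restate the cutoff and do not show the spread under other scalings.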
